A study of Bos taurus with 9 samples.

Results

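RGS13, ELL3 and KLHL6 are 3 genes known from germinal centre B cells, described here in rectal tissue of beef steers. They are 3 of the 24616 Ensembl genes in the deposited table, and all 3 passed the filter on low values used for the tests. They were selected by the study on the contrast that is described here, as genes lower in super-shedders (SS) than in non-shedders (NS) of Escherichia coli O157, so their levels and differences are a description and no test is given for them. MS4A1, a gene of nearly all B cells that was chosen on that contrast too, serves as a reference row.

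The germinal centre is the part of a lymphoid follicle where B cells that have met an antigen divide, mutate their antibody genes and are selected. RGS13 encodes a regulator of G-protein signalling that shortens the response of B cells to chemokine receptors coupled to Gi proteins. ELL3 encodes a member of the ELL family of elongation factors of RNA polymerase II, which is abundant in germinal centre B cells. KLHL6 encodes a BTB-kelch protein that brings substrates to cullin 3 ubiquitin ligases and is needed for germinal centres to form, and MS4A1 encodes the surface protein CD20. The rectal mucosa of cattle holds many lymphoid follicles close to the junction of the rectum with the anus, where E. coli O157 colonises.

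The question behind the comparison is whether the rectal transcriptome differs between SS and NS. The 5 SS (steers 274, 287, 294, 299 and 310) shed E. coli O157, serotype O157:H7 by the study's methods, in feces above the level that defines a super-shedder, and the 4 NS (steers 108, 152, 165 and 242) were negative for it. All were crossbred feedlot steers on the same finishing diet, with natural rather than experimental carriage. Their age was not stated in these sources, and not every SS was still above the defining level at slaughter. From each steer, 2 biopsies of 2 cm2 were taken 3 to 5 cm above the rectal-anal junction within minutes of death, and 100 mg of powdered tissue gave 1 stranded library of total RNA. Each value is thus an average over mucosa, follicles and muscle, and in such bulk tissue fewer cells of a type cannot be told apart from less RNA per cell.

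Levels are in CPM, the reads of a gene scaled to the reads on all genes of its library, from libraries of 5412523 reads (SS 274) to 12278503 reads (NS 108). One read is worth 0.0814 CPM in NS 108 and 0.185 CPM in SS 274. The 95% intervals given with single libraries are exact Poisson intervals of the reads and cover counting error only. CPM are not per length, so levels are compared between steers. Where a gene is called the most abundant of a list, it had the highest CPM there, without correction for length.

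Some libraries stood apart in their cell types. Names were paired with 2052 of the identifiers in the table, so the genes counted here as identified, and the named genes most like a member, are those within this number. Of 15 genes listed for colonic epithelium, 13 were identified, and their summed level was 7015, 7028, 6377 and 809 CPM in NS 108, 152, 165 and 242. In SS 274, 287, 294, 299 and 310 the sum was 1227, 8678, 70.2, 2984 and 7867 CPM. Epithelium was therefore scarce in NS 242, SS 274 and above all SS 294, where the defining marker EPCAM was at 11.3 CPM, and KRT19 was the most abundant gene of the list over the 9 steers together. The 11 of 11 smooth muscle genes identified, led by MYH11 over all steers together, summed to 10882, 11208, 16588 and 3014 CPM in NS 108, 152, 165 and 242. They summed to 469, 2004, 55173, 28748 and 4716 CPM in SS 274, 287, 294, 299 and 310, so SS 294 was the library richest in muscle and SS 274 the poorest. The 10 of 11 fibroblast genes identified, led by COL1A2, summed to 23844 CPM in SS 274 and 16056 CPM in SS 294, and to between 2351 and 7747 CPM in the other 7 steers.

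Lymphocyte genes varied as widely. Of 20 genes listed as pan-B, 9 were identified, all of them among those selected by the study on this contrast. MS4A1 had the highest CPM of them over the 9 steers together and in NS 152, 165 and 242, but not in NS 108 or in any SS. The summed level of the 9 genes was 288, 118, 178 and 891 CPM in NS 108, 152, 165 and 242 and 65.8, 73.1, 7.87, 87.2 and 40.2 CPM in SS 274, 287, 294, 299 and 310. The 4 of 15 T-cell genes identified, 3 of them selected by the study, summed to 519 CPM in NS 242 and to between 48.1 and 66.9 CPM in the other NS. CD3G had the highest CPM of them over the 9 steers together. In NS 242 it was at 107 CPM, with LEF1 at 182 CPM and TCF7 at 142 CPM. In the SS the T-cell sum lay between 36.4 and 52.5 CPM, except for 9.21 CPM in SS 294. In that library FAIM3 of the pan-B list had 0 reads, and the limit taken for 0 reads, 3 reads, is 0.400 CPM. NS 242 was thus rich and SS 294 poor in pan-B and T-cell RNA. The 2 of 8 plasma cell genes identified, JCHAIN and XBP1, with JCHAIN the more abundant over all steers together, had another pattern. They summed to 2868, 3507, 3338 and 1361 CPM in NS 108, 152, 165 and 242 and to 239, 5446, 206, 4973 and 4507 CPM in SS 274, 287, 294, 299 and 310, so 3 SS were above all NS and 2 below. The part of this tissue makeup in the differences described here was not tested.

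Of 20 genes listed for germinal centre B cells, LRMP alone was identified, and it too was selected by the study. The other genes of that list were not analysed here, so germinal centres themselves could not be checked against their defining markers. Of 12 genes listed for the stroma and chemokines of lymphoid follicles, 6 were identified, and 5 of them were selected by the study on this contrast. Their summed level was 362, 302, 309 and 1747 CPM in NS 108, 152, 165 and 242 and 93.3, 212, 44.8, 148 and 117 CPM in SS 274, 287, 294, 299 and 310. On deviations from the group means, the mean of log2(CPM + 0.5) over this list had Pearson r = 0.58 with RGS13, 0.77 with ELL3 and 0.86 with KLHL6 over the 9 steers, but 0.41, 0.07 and 0.23 without NS 242 and SS 294. VCAM1, an adhesion molecule that was the most abundant of the 6 over all steers together and the 1 not selected, had a log2 difference of -1.66 (standard error 0.59; exact permutation test, two-sided, p = 0.0317; adjusted p in limma 0.928). Its groups overlapped, and the difference was -0.78 without NS 242 and SS 294.

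RGS13 (ENSBTAG00000013849; UMD3.1 chromosome 16, 13213114 to 13240290) had a level of 41.0, 14.8, 30.3 and 39.6 CPM in NS 108, 152, 165 and 242. It was at 5.91, 11.6, 1.07, 4.22 and 7.55 CPM in SS 274, 287, 294, 299 and 310. Every SS was below every NS, but the step between the groups was narrow. The lowest NS, steer 152, had an interval from 12.5 to 17.3 CPM, and the highest SS, steer 287, from 9.74 to 13.7 CPM, so the intervals of these 2 steers overlapped. NS 108 and 242 could not be ordered at this depth either, nor could SS 310 and 274, or SS 274 and 299. The NS averaged 31.4 ± 12.1 CPM (SD, n = 4), the SS 6.07 ± 3.91 CPM (SD, n = 5), and the log2 difference was -2.46 (standard error 0.57) on the scale of log2(CPM + 0.5), which understates changes of low values. SS 294 rested on 8 reads.

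ELL3 (ENSBTAG00000032132; chromosome 21, 55947481 to 55950835) had 32.2, 10.7, 18.3 and 51.3 CPM in NS 108, 152, 165 and 242. The SS had 4.25 (274), 3.47 (287), 1.07 (294), 2.82 (299) and 3.21 CPM (310). The groups were farthest apart for this gene of the 3. The lowest NS was 2.53 times the highest SS, against 1.41 times for KLHL6 and 1.27 times for RGS13, and the intervals of NS 152 (8.84 to 12.9 CPM) and SS 274 (2.69 to 6.38 CPM) did not overlap. All neighbours in the order of the NS were separated by their intervals, with 242 highest, then 108, 165 and 152. No 2 neighbours in the order of the SS were, at 8 to 41 reads per library. The log2 difference was -2.91 (standard error 0.49), and without NS 242 and SS 294 together it was -2.29.

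KLHL6 (ENSBTAG00000037951; chromosome 1, 84158815 to 84211374) had 24.9, 9.10, 14.8 and 52.1 CPM in NS 108, 152, 165 and 242. It was at 6.47, 6.18, 3.07, 6.34 and 6.08 CPM in SS 274, 287, 294, 299 and 310. Apart from SS 294, the highest SS was 1.06 times the lowest, while the same 4 steers spanned 1.51 times for ELL3, 2.75 times for RGS13 and 3.30 times for MS4A1. The intervals of these 4 steers overlapped for KLHL6 and for ELL3, so which of the 2 genes was the more even cannot be read from these reads. Among NS the span was 5.72 times for KLHL6, 4.78 times for ELL3, 2.78 times for RGS13 and 6.58 times for MS4A1. The interval of NS 152 (7.36 to 11.1 CPM) overlapped that of SS 274 (4.50 to 8.99 CPM), although every SS was below every NS. The log2 difference was -1.82 (standard error 0.47), the smallest of the 3, and it was -1.20 without NS 242 and SS 294 together. The corresponding value of RGS13 was -1.87.

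MS4A1 (ENSBTAG00000004580; chromosome 15, 84615939 to 84630983) had 68.0, 31.3, 51.7 and 206 CPM in NS 108, 152, 165 and 242. The SS had 14.6 (274), 14.1 (287), 0.801 (294), 13.8 (299) and 4.43 CPM (310). SS 310 had far less MS4A1 than SS 274, 287 and 299, while its intervals overlapped those of these 3 steers for ELL3 and KLHL6. The log2 difference of MS4A1 was -3.26 (standard error 0.81), and -2.12 without NS 242 and SS 294.

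**Figure D1:**
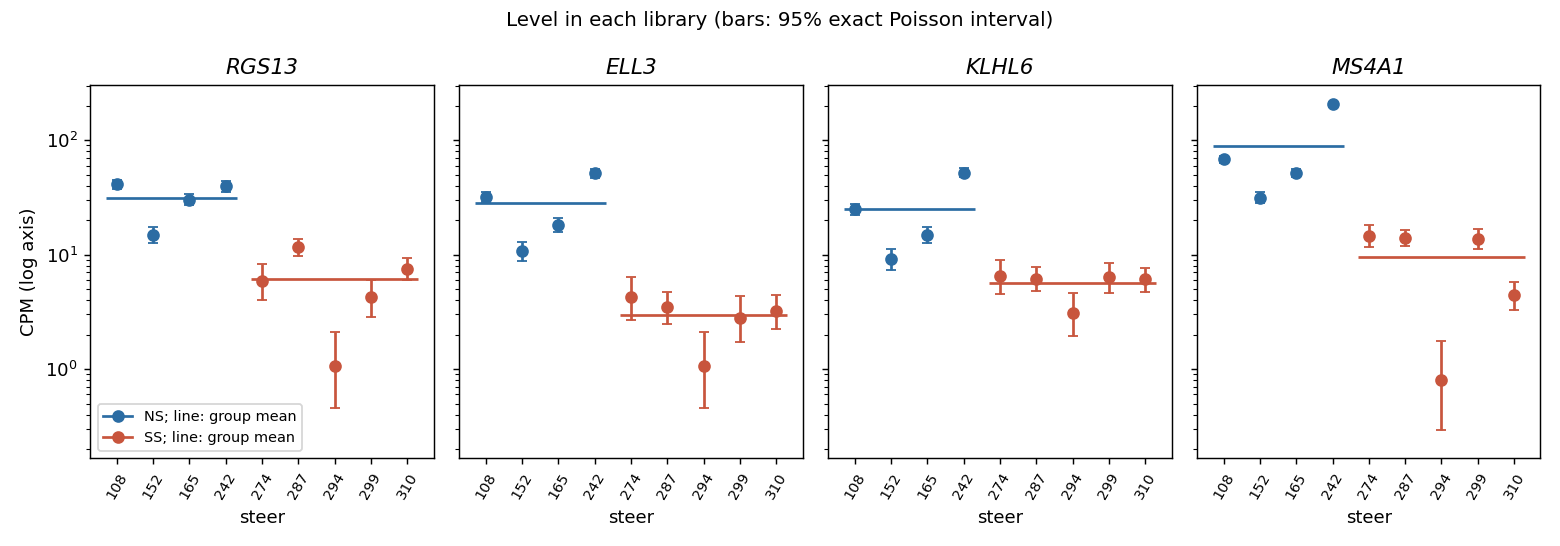
Level of RGS13, ELL3, KLHL6 and the reference MS4A1 in each of 9 libraries, in CPM on a log axis, with bars for 95% exact Poisson intervals and horizontal lines for the means of 4 NS and 5 SS. Every SS lies below every NS in each panel, KLHL6 is nearly level at 6.08 to 6.47 CPM in 4 SS, and RGS13 lacks the high point of NS 242 that the other panels show.

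All 3 genes and MS4A1 had every SS below every NS. Over the 15410 genes tested this held for 323 genes, or 2.10%, and after median-of-ratios scaling for 145. Nothing can be read from the members' count, because they were chosen on this contrast. Over all genes, limma called 0 (adjusted p below 0.05, absolute log2 difference above 1), with 610 at an unadjusted p below 0.05. The quasi-likelihood test of edgeR called 0 with 597 below 0.05, and DESeq2 called 19, or 0.125% of those it tested, with 897 below 0.05. The median over all genes was a log2 difference of -0.13, and 0.01 after median-of-ratios scaling, a shift that is small beside the differences of the 3 genes.

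NS 242, the steer with the most pan-B and T-cell RNA, did not weigh equally on the 3 genes. It held 57.7% of the summed NS values of MS4A1, 51.6% of those of KLHL6, 45.6% for ELL3 and 31.5% for RGS13. Of the 47 genes chosen as lower in SS, 39 were highest in NS 242 and 8 were not. RGS13 counted among the 8 by its value in NS 108, which could not be told from that in NS 242 at this depth. The median share of NS 242 over the 47 genes was 63.2%, with 7 genes below RGS13, 8 below ELL3 and 12 below KLHL6. All 3 genes thus had less of their NS signal in steer 242 than the median gene chosen with them.

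The ratio of reads to MS4A1 shows how far each gene followed the B-cell marker from steer to steer. For RGS13 this ratio was 0.604, 0.471, 0.586 and 0.192 in NS 108, 152, 165 and 242, and 0.405, 0.825, 1.33, 0.306 and 1.71 in SS 274, 287, 294, 299 and 310. The groups overlapped. Among the NS the ratio of steer 242, with an exact binomial interval from 0.171 to 0.216, was far below those of the other 3, whose intervals ran from 0.386 to 0.675. Among the SS, steer 310 with an interval from 1.19 to 2.46 was above steers 274 and 299, with intervals from 0.260 to 0.618 and from 0.196 to 0.465. RGS13 therefore varied by more than counting error against MS4A1 within both groups. The same held for ELL3 and KLHL6, whose intervals for NS 108 and 242, and for SS 310 and 299, did not overlap.

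For ELL3 the ratio to MS4A1 was 0.473, 0.343, 0.354 and 0.249 in NS 108, 152, 165 and 242, and 0.291, 0.247, 1.33, 0.204 and 0.725 in SS 274, 287, 294, 299 and 310. SS 274 lay within the NS range, SS 287 at its lower edge, SS 299 below it, and SS 294 and 310 above it. Each SS had an interval that overlapped that of NS 108 or NS 242, the ends of the NS range. On the log2 scale the NS had a mean difference of ELL3 from MS4A1 of -1.51 ± 0.38 (SD, n = 4), and the SS one of -1.16 ± 1.03 (SD, n = 5). The gap of 0.35 between these means was within the spread of the steers and became -0.00418 without SS 294, where ELL3 rested on 8 reads and MS4A1 on 6. This gap was the smallest of the 3 genes.

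For KLHL6 the ratio was 0.366, 0.291, 0.287 and 0.253 in NS 108, 152, 165 and 242, and 0.443, 0.440, 3.83, 0.459 and 1.37 in SS 274, 287, 294, 299 and 310. Every SS was above every NS, with a smaller log2 difference for KLHL6 than for MS4A1. MS4A1 had the largest log2 difference of the 9 identified pan-B genes, whose median was -2.52 and whose smallest was -1.94. LRMP, at -1.96, also differed by less than MS4A1. The gaps to MS4A1 thus depend on this reference and are not particular to the members. The median ratio of the SS was 1.59 times that of the NS, against 1.56 times for RGS13 and 0.836 times for ELL3. SS 274, 287 and 299 had intervals of 0.289 to 0.668, 0.329 to 0.582 and 0.315 to 0.660. These overlapped those of NS 108 (0.320 to 0.418), 152 (0.229 to 0.366) and 165 (0.239 to 0.343). The separation from these NS was thus within counting error, although the 3 intervals lay above that of NS 242 (0.227 to 0.280). SS 294 (1.52 to 11.5) and SS 310 (0.943 to 2.01) lay clear of the intervals of all NS. KLHL6 differed from MS4A1 by a mean of -1.73 ± 0.22 (log2, SD, n = 4) among NS and -0.29 ± 1.18 (log2, SD, n = 5) among SS, a gap of 1.44 that was 0.92 without NS 242 and SS 294. For RGS13 the gap was 0.80 and without these steers 0.25.

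The members were also set against each other by ratios of reads, which are compared between steers only. The ELL3 to KLHL6 ratio was 1.29, 1.18, 1.23 and 0.984 in NS 108, 152, 165 and 242. In SS 274, 287, 294, 299 and 310 the ratio was 0.657, 0.562, 0.348, 0.444 and 0.529. Every SS was below every NS, and the steers within a group were closely alike, with log2 SDs of 0.17 in NS and 0.25 in SS. The interval of SS 274 (0.371 to 1.14) overlapped those of all 4 NS, while the intervals of the other 4 SS lay below those of all NS. This ratio separated the groups with less spread than either gene's ratio to MS4A1. Both genes were chosen on the contrast, so the separation is a description of how their selected differences, -2.91 and -1.82, fall on single steers.

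RGS13 to ELL3 ratios were between 0.773 (NS 242) and 1.66 (NS 165) in NS and between 1 (SS 294) and 3.34 (SS 287) in SS, and the groups overlapped. The interval of SS 287 ran from 2.34 to 4.86 and that of NS 242 from 0.669 to 0.892. These 2 libraries were the extremes of RGS13 against ELL3, and they were also far apart in epithelium, with the highest epithelial sum in SS 287 and a low one in NS 242. The part of epithelium in this was not tested. RGS13 to KLHL6 ratios were between 0.761 (NS 242) and 2.04 (NS 165) in NS. In SS they were between 0.348 (SS 294) and 1.88 (SS 287), and the groups overlapped.

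**Figure D2:**
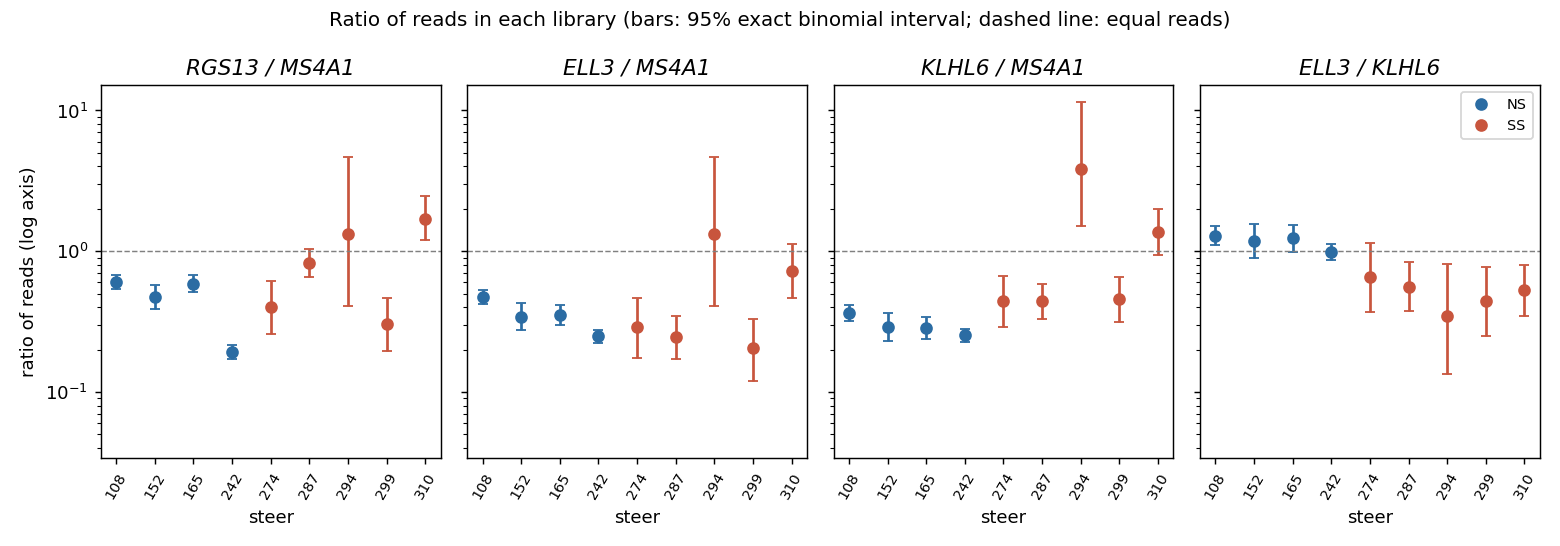
Reads of RGS13, ELL3 and KLHL6 relative to MS4A1, and of ELL3 relative to KLHL6, in each of 9 libraries on a log axis, with bars for 95% exact binomial intervals and a dashed line at equal reads. The KLHL6 to MS4A1 ratio is higher in all 5 SS than in the 4 NS, the ELL3 to KLHL6 ratio is lower in all 5 SS, and the other ratios overlap.

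Likeness of pattern was measured by Pearson r of log2(CPM + 0.5) over the 9 steers. Because the genes were chosen as different between the groups, r was also computed on deviations from the group means, which leaves only the variation among steers of a group. With the group means removed, ELL3 and KLHL6 had r = 0.96 (Spearman rho = 0.93, n = 9), and r stayed between 0.93 and 0.97 when single steers were left out. RGS13 and ELL3 had r = 0.81 (rho = 0.67), and RGS13 and KLHL6 r = 0.67 (rho = 0.52). With single steers left out these ranged from 0.71 to 0.88 and from 0.56 to 0.82, both highest without NS 242. Within the groups, then, ELL3 and KLHL6 moved together and RGS13 less closely with either. All points share the libraries and their tissue makeup.

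Against MS4A1, r on deviations was 0.86 for ELL3, 0.80 for KLHL6 and 0.77 for RGS13 (rho = 0.87, 0.85 and 0.50, n = 9). The likeness of RGS13 to MS4A1 rested on SS 294, since r was 0.42 without it. Without NS 242 and SS 294, r to MS4A1 was 0.54 for ELL3, 0.53 for KLHL6 and 0.28 for RGS13 (n = 7), while ELL3 and KLHL6 kept r = 0.95 with each other. With the group difference left in, all pairs among the 4 genes had r between 0.89 and 0.97.

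Among named genes, those most like ELL3 on deviations were CAPZB (r = 0.99), which caps actin filaments, EPB41 (0.97), a protein of the membrane skeleton, KLHL6 (0.96), LRMP (0.96) and CD79B (0.93), a subunit of the B-cell receptor. Those most like KLHL6 were ELL3, LRMP (0.96), SEMA7A (0.95), CD79B (0.95) and EPB41 (0.94). RGS13 had other partners: GNB2 (0.94), a beta subunit of G proteins, EIF5A (0.91), PLA2G2A (0.90), HIST1H2BJ (0.90) and LAMTOR4 (0.90). None of these 5 was among the 5 genes most like ELL3 or KLHL6. Of all genes tested, 14 without a name were closer to RGS13 than GNB2, and for KLHL6 13 were closer than ELL3, while for ELL3 no gene was closer than CAPZB. PLA2G2A is the symbol of 2 identifiers, and the one meant is that on chromosome 2 which was selected by the study.

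With the group difference left in, the named genes most like RGS13 were PLA2G2A (r = 0.97), ARPC5L (0.95), CHCHD1 (0.94), ELL3 (0.94) and CD79B (0.93). For ELL3 they were FCRLA (0.98), KLHL6 (0.97), LRMP (0.97), CD79B (0.97) and APEX1 (0.95), and for KLHL6 they were LRMP (0.99), CD79B (0.98), SEMA7A (0.98), ELL3 (0.97) and LTB (0.97). Lymphocyte genes led the lists of ELL3 and KLHL6, and all but ARPC5L, CHCHD1 and APEX1 were selected by the study on this contrast, so a high r over all 9 steers is partly what the selection fixed.

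Set against the means of marker lists on deviations, ELL3 and KLHL6 followed the 9 pan-B genes with r = 0.92 and 0.91. KLHL6 followed the 4 T-cell genes as closely (0.91), ELL3 less so (0.84). Without NS 242 and SS 294 ELL3 had r = 0.72 with the pan-B and 0.40 with the T-cell genes, and KLHL6 0.82 and 0.64. RGS13 had r = 0.78 with the pan-B genes and 0.80 with the 3 proliferation genes, and 0.51 and 0.70 without SS 294. With the proliferation genes ELL3 had 0.67 and KLHL6 0.68, and without NS 242 and SS 294 the 3 members had 0.66 (RGS13), 0.19 (ELL3) and 0.29 (KLHL6). With the T-cell genes RGS13 had 0.60, and 0.22 without these 2 steers. SH2D1A was the 1 gene identified for follicular helper T cells, and it was selected by the study. With it RGS13 had r = 0.64, ELL3 0.86 and KLHL6 0.91, and without these 2 steers 0.81, 0.67 and 0.64. With the 4 macrophage genes r was 0.33 (RGS13), 0.63 (ELL3) and 0.57 (KLHL6), and with the 2 plasma cell genes 0.50, 0.05 and 0.02. Without these 2 steers it was -0.17, 0.15 and -0.11 for macrophages and 0.18, -0.33 and -0.12 for plasma cells. RGS13 had r = 0.67 with the 13 epithelial genes and -0.71 with the 10 fibroblast genes, where ELL3 had 0.18 and -0.33 and KLHL6 0.01 and -0.29 (n = 9). With epithelium the r of RGS13 was 0.06 without SS 294, 0.85 without NS 242 and 0.47 without both, so its size depended on these steers. For ELL3 and KLHL6 r was -0.61 and -0.63 without SS 294, 0.61 and 0.57 without NS 242, and -0.14 and -0.03 without both. With fibroblasts the r of RGS13 was -0.53 without SS 294 and -0.94 without SS 274, that of ELL3 -0.00979 and -0.62, and that of KLHL6 was -0.08 without SS 294 and -0.49 without NS 242. With the 11 smooth muscle genes r was -0.67 for RGS13, -0.66 for ELL3 and -0.49 for KLHL6, and -0.31, -0.34 and -0.04 without NS 242 and SS 294. The part of the tissue makeup in the values of the 3 genes was not tested.

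The genes next to the members were looked up to see whether whole regions differed. Neighbours were taken from the order of protein-coding genes in RefSeq's annotation of ARS-UCD2.0, used for names only, and no annotated gene there overlapped RGS13, ELL3 or KLHL6. Of the 18 nearest, 3 on each side of each gene, 7 had an identifier, and their median log2 difference was -0.22. LAMP3, which like RGS2 was selected by the study on this contrast, was the 1 of these 7 with every SS below every NS, as were 2.10% of all genes.

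RGS13 lies in a cluster of its own family, between RGS2 and RGS1. RGS2, 167893 bases from RGS13 on UMD3.1, averaged 22.8 ± 15.3 CPM (SD) over 4 NS and 17.1 ± 7.60 CPM (SD) over 5 SS. Its log2 difference was -0.28 (standard error 0.51), although it was selected by the study as well, and ranged from -0.64 without NS 108 to 0.10 without NS 165. RGS1, which is also used by B and T cells to damp chemokine receptors, was at 61.2, 167, 208 and 232 CPM in NS 108, 152, 165 and 242. In SS 274, 287, 294, 299 and 310 it was at 568, 136, 76.9, 94.3 and 115 CPM. Its groups overlapped, with a log2 difference of -0.04 (exact permutation test, two-sided, p = 0.952, and adjusted p in limma 0.994). The difference was 0.11 after median-of-ratios scaling, -0.53 without SS 274 and 0.19 without SS 294. NS 108 and 242, which could not be ordered for RGS13, had the lowest RGS1 of all 9 steers and the highest RGS1 of the NS. TROVE2, farther along the same chromosome, had a log2 difference of 0.10 (exact permutation test, p = 0.492; adjusted p in limma 0.942), which was 0.25 after scaling and 0.02 without SS 294.

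PDIA3, a folding enzyme of the endoplasmic reticulum, lies next to ELL3. It averaged 596 ± 144 CPM (SD) over 4 NS and 648 ± 319 CPM (SD) over 5 SS. Its log2 difference was -0.00375 (exact permutation test, p = 0.984), or 0.15 after median-of-ratios scaling. SERF2 was at 174 ± 9.52 and 127 ± 37.1 CPM (SD), a log2 difference of -0.50 (exact permutation test, p = 0.0635; adjusted p in limma 0.928). After scaling SERF2 differed by -0.35 (exact permutation test, p = 0.190). HYPK differed by -0.22 (exact permutation test, p = 0.397), and by -0.07 after scaling and -0.07 without SS 274. None of these 3 neighbours of ELL3 passed a test, and in all 3 the groups overlapped.

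Near KLHL6, LAMP3, a marker of mature dendritic cells 324977 bases away, was at 25.0, 17.8, 20.7 and 128 CPM in NS 108, 152, 165 and 242. It was at 15.0, 15.2, 3.47, 15.6 and 13.6 CPM in SS 274, 287, 294, 299 and 310. Like KLHL6 it was nearly level in 4 SS and low in SS 294, and on deviations the 2 genes had r = 0.91 (n = 9). This was not particular to the neighbour, since LAMP3 had r = 0.88 with ELL3 and 0.89 with MS4A1, on other chromosomes. With RGS13 it had 0.68. The log2 difference of LAMP3 was -1.52, but -0.88 without NS 242 and -0.49 without NS 242 and SS 294. The other 5 neighbours of KLHL6 (MCF2L2, B3GNT5, KLHL24, YEATS2 and MAP6D1) were not analysed here.

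None of the identified relatives and partners of the 3 proteins passed a test. Of 9 other RGS genes of the R4 subfamily, to which RGS13 belongs, 3 were identified (RGS1, RGS2 and RGS5). RGS5, which marks pericytes, averaged 576 ± 310 CPM (SD) over 4 NS and 598 ± 367 CPM (SD) over 5 SS, and its log2 difference of -0.14 became -0.72 without NS 242 and 0.53 without SS 274. Limma, edgeR and DESeq2 called 0 of the 3, and none had an unadjusted p below 0.05 in any of them, beside 3.60% of all genes lower and 0.357% higher in SS at that level in limma. These shares were 2.32% and 1.56% in edgeR and 2.63% and 3.26% in DESeq2. The median log2 difference of the 3 is that of RGS5, and 0.01 after median-of-ratios scaling.

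Of 14 genes of the ELL family and its partners in elongation, AFF4, CDK9 and CCNT1 were identified. In the 4 NS they averaged 234 ± 15.8, 101 ± 13.9 and 92.6 ± 7.34 CPM (SD), and in the 5 SS 266 ± 51.9, 79.5 ± 26.4 and 88.4 ± 12.6 CPM (SD). Limma, edgeR and DESeq2 called 0 of these 3, with 0 at an unadjusted p below 0.05, and the median log2 difference was -0.08, or 0.07 after median-of-ratios scaling. Of 15 genes of cullin 3 ligases, CUL3, the regulator CAND1 and the ubiquitin-like NEDD8 were identified, with 0 called and 0 below 0.05 in each tool. CUL3 averaged 180 ± 14.9 CPM (SD) over 4 NS and 160 ± 18.0 CPM (SD) over 5 SS, and the median log2 difference of these 3 genes was -0.18, or -0.03 after median-of-ratios scaling. These 6 genes are expressed in most cell types, unlike ELL3 and KLHL6, and the groups overlapped for each of them.

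The receptors and G proteins that place B cells in the follicle, the pathway that RGS13 acts on, were identified for 8 of 15 genes. Limma, edgeR and DESeq2 called 0 of them, and 2, 1 and 1 had an unadjusted p below 0.05, all lower in SS, beside 3.60%, 2.32% and 2.63% of all genes. The 8 include CCR7, which the study selected on this contrast. Their median log2 difference was -0.22, or -0.07 after median-of-ratios scaling, beside -0.13 and 0.01 for all genes. CXCR4, the chemokine receptor of the dark zone of germinal centres, was at 47.4, 54.3, 66.8 and 250 CPM in NS 108, 152, 165 and 242 and at 73.7, 36.6, 14.8, 14.6 and 38.9 CPM in SS 274, 287, 294, 299 and 310. The groups overlapped for CXCR4 (log2 difference -1.43, standard error 0.61; exact permutation test, p = 0.0952; adjusted p in limma 0.928), and the difference was -0.89 without NS 242 and -0.65 without NS 242 and SS 294. GNAI2, the main Gi subunit of lymphocytes, differed by -0.14 (exact permutation test, p = 0.683). The difference of GNAI2 was 0.00496 after scaling, 0.11 without NS 242 and -0.28 without SS 294. CCR7 was the 1 gene of the 8 with every SS below every NS, as were 2.10% of all genes.

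Germinal centre B cells divide fast, and 3 of 17 genes listed for proliferation were identified. PCNA, STMN1 and HMGB2 had log2 differences of -0.97, -1.08 and -1.15 (standard errors 0.40, 0.31 and 0.45), with exact permutation p of 0.0635, 0.0159 and 0.0794 and an adjusted p of 0.928 each in limma. Limma called 0 of them and had 3 at an unadjusted p below 0.05, edgeR 0 and 2, and DESeq2 0 and 2, all lower in SS, where the shares of all genes below 0.05 and lower in SS were 3.60%, 2.32% and 2.63%. STMN1 was at 82.4 to 172 CPM in NS and 37.3 to 82.0 CPM in SS, with 82.4 and 82.0 CPM in the closest steers, and 0.0159 is the smallest p that 9 steers allow. After median-of-ratios scaling the groups overlapped for STMN1 as well, and the exact permutation p of PCNA, STMN1 and HMGB2 were 0.0952, 0.0476 and 0.0635. Without NS 242, SS 274 and SS 294, the differences were -0.30, -0.55 and -0.34. Epithelial crypts divide as well, so these genes do not mark germinal centres alone.

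**Figure D3:**
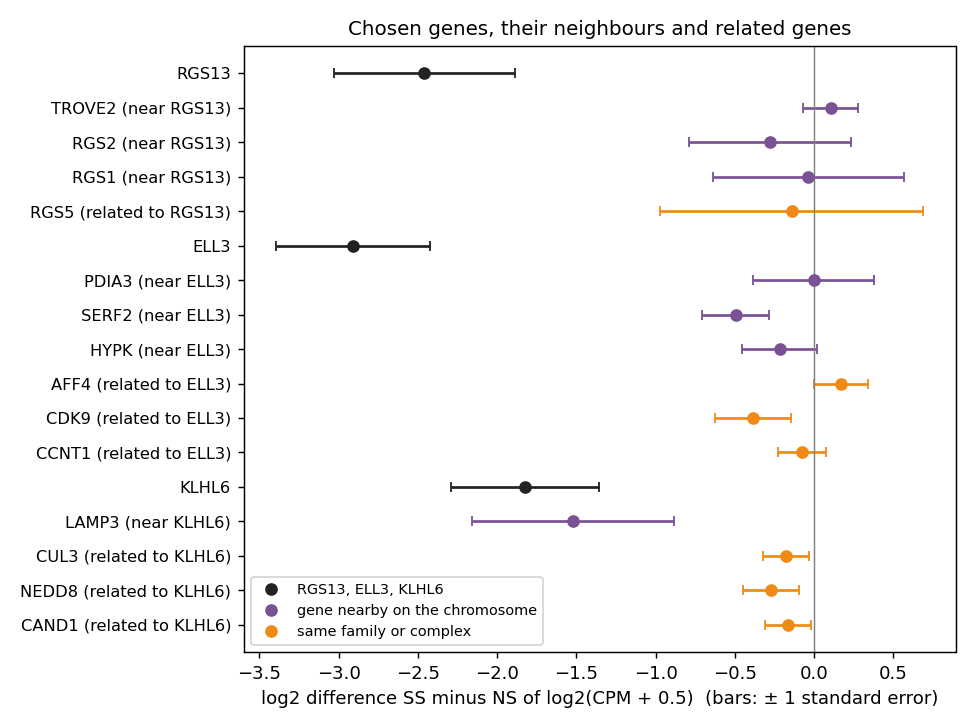
Log2 difference of SS minus NS on the scale of log2(CPM + 0.5), with bars of 1 standard error, for RGS13, ELL3 and KLHL6 and for identified genes near them on the chromosome or of the same family or complex. The 3 genes lie between -2.91 and -1.82, LAMP3 at -1.52 (-0.88 without NS 242), and the other genes between -0.50 and 0.17.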

How the data were processed

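The authors deposited CPM per Ensembl gene for 9 libraries. The submitters' processing notes name TopHat2, HTSeq, edgeR and UMD3.1, and whether counting used the strand is not stated there. All columns were used (0 left out). In each library 100% of the CPM values were whole multiples of 1 read within 0.01 reads, so reads were recovered for the count tests and intervals; on them edgeR called 0 genes and DESeq2 19. The main test was limma 3.58.1 (R 4.3.3) with an intensity trend on log2(CPM + 0.5), for genes at 0.5 CPM or more in 4 steers or more, adjusted by Benjamini-Hochberg. Alternatives were edgeR 4.0.16, DESeq2 1.42.0, other pseudocounts, filters and scaling, and each steer left out. Values and figures were made with matplotlib 3.10.9, scipy 1.17.1, pandas 2.3.3 and numpy 2.4.6 under Python 3.11.15. The fits were tested on simulated data. Names were paired with 2052 identifiers from supplements of the study, the longest of which was used in its first 1998 rows only, so all counts of identified genes hold for these names. Genes named are the 3 members and MS4A1, identified genes of the lists, the 5 named genes most like each member by each r, and up to 3 neighbours on each side. The members and lists were chosen with earlier results of these data known. A planned search of promoters for motifs was not run, as no sequences were used here.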

Additional observations from a re-analysis of the deposited data

Results flagged for a closer look

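A steer was taken as far from the others of its group where its gap to the nearest one, divided by the range of the group, passed the 95% critical value of Dixon's test. Of 84 groups of values looked at, 14 had such a steer, and chance gives about 1 in 20. Of the 3 genes, this held for KLHL6 in SS, where steer 294 had 3.07 CPM and the others 6.08 to 6.47 CPM. Its neighbour LAMP3 was the same in SS, with 3.47 CPM in steer 294 and 13.6 to 15.6 CPM in the others.

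NS 242 was far above the other NS for LAMP3 (128 CPM, others 17.8 to 25.0), CCR7 (160 CPM, others 8.72 to 14.2), CXCR4 (250 CPM, others 47.4 to 66.8), VCAM1 (595 CPM, others 155 to 200.3), GNA13 (60.1 CPM, others 35.9 to 39.8) and GNAI2 (215 CPM, others 100 to 115). The same steer was far from the other NS in the summed T-cell genes (519 CPM), follicle genes (1747 CPM), macrophage genes (854 CPM) and epithelial genes (809 CPM, the lowest). SS 274 was far above the other SS for RGS1 (568 CPM, others 76.9 to 136) and for the summed macrophage genes (1113 CPM, others 210 to 330). RGS13, ELL3 and MS4A1 had no such steer in either group.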

How the results depend on the processing

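The log2 differences of RGS13, ELL3, KLHL6 and MS4A1 kept their sign and moved by less than 1 SD under all alternatives run. With steers left out the sign was fixed beforehand, because every SS was below every NS for these genes. Without NS 242 and SS 294 together the differences were -1.87, -2.29, -1.20 and -2.12. For each gene this was a move larger than its standard error. With single steers left out the differences ranged from -2.78 to -2.01, -3.28 to -2.55, -2.20 to -1.38 and -3.64 to -2.64. The ELL3 to MS4A1 difference changed sign: it was -0.17 without NS 242 and SS 294 and -0.12 without SS 274 as well, both left out after seeing the data, and it ranged from -0.00418 (without SS 294) to 0.59 with single steers left out. The r of RGS13 and MS4A1 with group means removed ranged from 0.42 to 0.85. The genes called were 19 with DESeq2 and 0 or 1 with single steers left out. Genes with every SS below every NS were 145 after median-of-ratios scaling and 384 to 673 with 1 steer fewer, which makes separation easier. The causes of the other changes were not tested. For 27 other genes whose log2 differences were recomputed (LRMP, VCAM1, the neighbours and the genes of the RGS, ELL, cullin 3, positioning and proliferation lists), 472 of 486 values moved by less than 1 SD. The motif search was not run. Counts of 6 to 41 reads limit ELL3 in all SS, RGS13 in SS 274, 294 and 299, KLHL6 in SS 274 and 294, and MS4A1 in SS 294. No paired analysis was possible because the groups share no replicate numbers. The study describes the NS as pen-mates, but its text does not say which steers shared a pen.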
